A study of Mus musculus with 10 samples.

Results

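The genes of MHC class I antigen presentation were examined in bone marrow derived macrophages (BMDMs) from Rac2-/- and WT mice. The 10 members were chosen by name, with earlier results of these data known. They were the class I heavy chains H2-K1, H2-D1, H2-M2, H2-M3, H2-Q4, H2-Q10 and H2-T24. The others were the light chain B2m and the peptide transporter subunits Tap1 and Tap2. A member was read only from an array feature that the platform annotation gives to that gene alone. This left 8 of the 10 members, out of 19935 genes with a feature of their own, and all 8 were tested. H2-K1 and H2-D1, the classical heavy chains of these mice, were represented by 2 features that both genes share with a further locus, so no value is given for either.

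RNA was hybridized to Affymetrix whole-transcript mouse arrays, 5 of Rac2-/- BMDMs and 5 of WT BMDMs, numbered 1 to 5 in each group. Rac2 is a small GTPase of blood cells. Rac2-/- mice carry a germline deletion of it, so every cell of the donor lacked the gene, and WT mice had both copies. Both groups were male C57BL, and both were grown without further treatment in MCSF, the growth factor that drives macrophage differentiation, at 50 ng/ml for 7 days with 20% FBS and 16% oxygen. The design names 5 mice of each genotype, but no label ties an array to a mouse or gives an age. The p-values therefore rest on the spread among the arrays of a group, which may in part be technical. Values are log2 RMA values, in which a step of 1 is a doubling of signal, and differences are Rac2-/- minus WT.

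MHC class I molecules show peptides from the inside of a cell to CD8 T cells. Proteasomes cut proteins into peptides, the TAP transporter carries them into the endoplasmic reticulum, and a loading complex fits them onto a heavy chain paired with beta-2 microglobulin. Interferons raise the transcription of most of these genes, through an interferon response element (ISRE) and, together with the transactivator Nlrc5, through conserved boxes near the start site. Nonclassical heavy chains, to which all 5 heavy chains measured here belong, vary less between mice and often have a narrower task.

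The sequences upstream of the start sites are shown first, because the control elements near the start site differ among class I genes. RefSeq promoter entries (build GRCm38.p6) matched 8 of the 10 members, and the 250 bases before the start site are given for the measured ones among them. For Tap1, which lies head to head with Psmb9, the 225 bases between the genes are given. Capitals mark matches to 4 motifs searched on both strands.
H2-M2, chr17:37483555-37483804, minus strand: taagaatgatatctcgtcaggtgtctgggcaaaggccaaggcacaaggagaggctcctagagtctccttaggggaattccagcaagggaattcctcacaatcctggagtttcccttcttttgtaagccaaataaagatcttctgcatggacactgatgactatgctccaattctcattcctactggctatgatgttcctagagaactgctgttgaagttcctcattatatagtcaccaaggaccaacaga
H2-M3, chr17:37269984-37270233, plus strand: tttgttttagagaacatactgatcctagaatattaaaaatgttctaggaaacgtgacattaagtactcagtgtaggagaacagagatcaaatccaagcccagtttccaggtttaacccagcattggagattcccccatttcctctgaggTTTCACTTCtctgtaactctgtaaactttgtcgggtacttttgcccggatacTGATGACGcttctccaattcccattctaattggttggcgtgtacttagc
H2-Q4, chr17:35379367-35379616, plus strand: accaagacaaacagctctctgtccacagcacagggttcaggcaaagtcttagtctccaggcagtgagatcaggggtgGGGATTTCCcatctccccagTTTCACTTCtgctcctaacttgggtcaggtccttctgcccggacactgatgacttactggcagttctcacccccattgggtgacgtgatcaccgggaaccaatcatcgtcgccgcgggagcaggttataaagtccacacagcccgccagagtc
H2-Q10, chr17:35469839-35470088, plus strand: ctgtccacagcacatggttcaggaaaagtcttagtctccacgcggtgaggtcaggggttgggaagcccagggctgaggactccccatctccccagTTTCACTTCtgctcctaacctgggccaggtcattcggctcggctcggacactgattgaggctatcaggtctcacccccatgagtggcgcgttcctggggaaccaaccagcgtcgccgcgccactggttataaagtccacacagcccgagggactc
B2m, chr2:122147437-122147686, plus strand: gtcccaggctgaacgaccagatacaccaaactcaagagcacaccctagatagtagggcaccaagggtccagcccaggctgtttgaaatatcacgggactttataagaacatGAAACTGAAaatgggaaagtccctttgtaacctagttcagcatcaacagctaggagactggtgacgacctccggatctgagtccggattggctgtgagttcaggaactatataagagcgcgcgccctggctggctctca
Tap1, chr17:34187331-34187555, plus strand: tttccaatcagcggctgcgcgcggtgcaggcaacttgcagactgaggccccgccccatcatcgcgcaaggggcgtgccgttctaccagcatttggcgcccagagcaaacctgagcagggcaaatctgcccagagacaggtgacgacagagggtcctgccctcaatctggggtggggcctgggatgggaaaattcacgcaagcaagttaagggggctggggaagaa

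The motifs were chosen after the sequences had been seen, and their matches did not overlap in these windows. TTTCACTTC, the core of the ISRE of class I genes, was found upstream of H2-M3, H2-Q4 and H2-Q10, and in 0.477% of 27025 genes searched in the same way. GAAANNGAA, the core of a general ISRE, was found upstream of B2m and in 8.18% of genes. TGATGACG, the X2 box to which CREB-type factors bind, was found upstream of H2-M3 and in 0.714% of genes. GGGATTNCC, the kappaB core of the class I enhancer A, was found upstream of H2-Q4 and in 0.977% of genes. No match was found in these windows of H2-M2 and Tap1. The search allowed no other letters, so near matches were not marked. The H2-M2 window holds tttcccttc and tgatgact, which differ from TTTCACTTC and TGATGACG by a letter each. It also holds gggaattcc, which differs from GGGATTNCC by a letter. The H2-Q4 window also holds tgatgact. The H2-M3 window holds gagattccc, a letter from GGGATTNCC, and the B2m window holds tggtgacg, a letter from TGATGACG. These are examples, and no full list of near matches was made. A match is a run of letters, and binding was not measured.

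**Figure D1:**
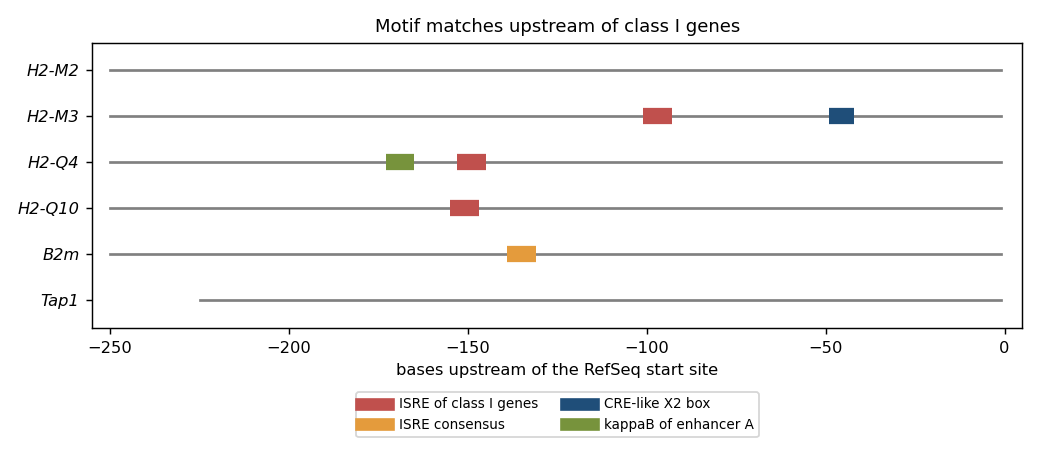
Position of motif matches (coloured bars) upstream of 6 class I genes, in bases from the RefSeq start site, with the searched window as a grey line (250 bases, and 225 for Tap1). H2-M3 and H2-Q4 have 2 exact matches each, H2-Q10 and B2m 1 each, and H2-M2 and Tap1 0.

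The arrays were checked before the members were read. Rac2 had log2 values of 6.90, 6.80, 7.04, 7.54 and 7.20 in Rac2-/- arrays, against 11.81, 11.82, 12.26, 12.19 and 12.42 in WT arrays (p = 0.00794 in a two-sided exact permutation test, the lowest p possible with 5 against 5 arrays). In both groups arrays 1 and 2 stood apart from arrays 3 to 5: correlations over features were 0.974 to 0.996 within these array sets and 0.934 to 0.955 between them. The labels do not say what sets them apart. Arrays 3 and 4 were the closest pair of each group, and 0 pairs of arrays were identical. Of 11 macrophage markers, 10 were tested and 0 passed an adjusted p of 0.05 in limma (3 at an unadjusted p under 0.05). Their summed level was 15.55 to 15.76 in Rac2-/- arrays and 15.56 to 15.77 in WT arrays. The sum is led by the markers of highest signal, so it can hide differences of single markers. The mean was higher in Rac2-/- arrays for 7 markers and lower for 3. All Rac2-/- arrays lay below all WT arrays for Fcgr1 (-0.74) and Cd68 (-0.22), and above them for Itgam (0.33). With arrays of the same number fitted as pairs, Itgam passed as higher and Fcgr1 as lower. Csf1r, the MCSF receptor, had values of 12.62 to 12.91 in Rac2-/- arrays and 12.57 to 12.78 in WT arrays.

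Among the 8 members, H2-M2 and H2-M3 fell in Rac2-/- BMDMs past the adjusted p of 0.05 (limma with Benjamini-Hochberg adjustment over all features). Over all features tested, 1.11% were lower and 0.795% higher at this threshold. The same shares apply to the counts that fell or rose in the lists below. The mean was lower in Rac2-/- BMDMs for 8 of 8 members, where 50.1% of all features were lower. Earlier results of these data were known when the members were chosen, so such shares describe the members and do not test them. The median difference of the members was -0.78, and the largest was that of H2-M2. All Rac2-/- arrays lay below all WT arrays for 5 of the 8 members, as they did for 2.34% of all features. When arrays of the same number were treated as a pair (the replicate block), 6 members passed, all lower, against 3.03% of all features. Pairing by number is an assumption, since arrays with other numbers in the same array set correlated about as highly. B2m and H2-Q10 did not pass in either fit.

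**Figure D2:**
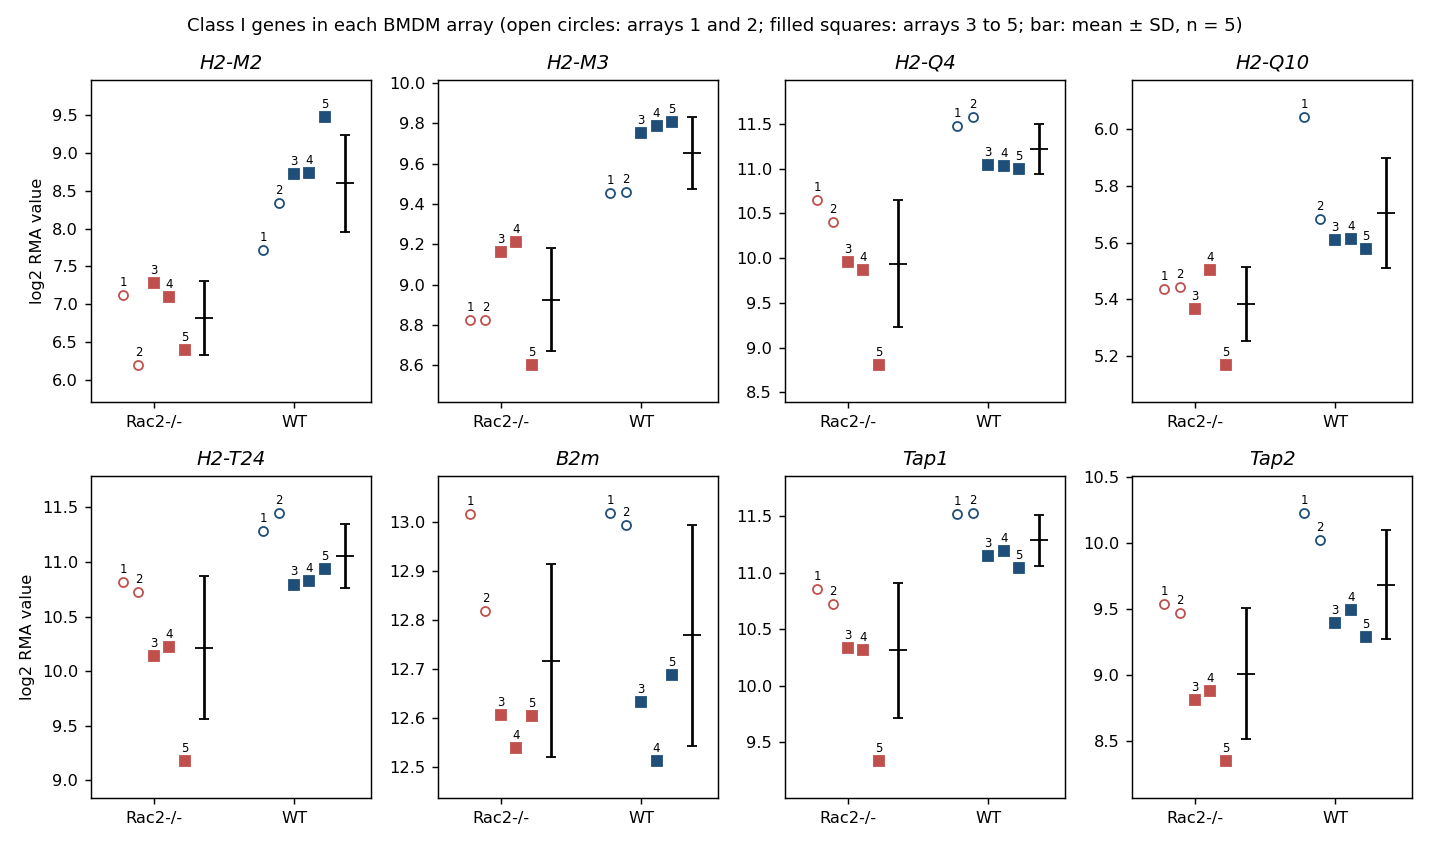
Log2 RMA values of the 8 measured members in each array, Rac2-/- left and WT right, with array numbers beside the points; open circles are arrays 1 and 2, filled squares arrays 3 to 5, and bars give mean ± SD (n = 5). The groups do not overlap for H2-M2, H2-M3, H2-Q4, H2-Q10 and Tap1, and Rac2-/- array 5 is the lowest array for 6 members.

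H2-M2, a nonclassical heavy chain gene at the far end of the H2 complex, had log2 values of 7.12, 6.20, 7.28, 7.10 and 6.40 in Rac2-/- arrays, against 7.72, 8.34, 8.73, 8.74 and 9.48 in WT arrays. The highest Rac2-/- array lay below the lowest WT array. The mean was 6.82 ± 0.48 in Rac2-/- and 8.60 ± 0.64 in WT arrays (SD, n = 5 each). The difference was -1.78 ± 0.32 (SE), 3.44-fold lower, with an adjusted p of 0.0221, and 0.0261 with the replicate block. The Rac2-/- values lay within or below the range of the deleted Rac2 in the same arrays, 6.80 to 7.54. Array medians were 6.07 to 6.14, so low signal in Rac2-/- arrays limits what the size of the fold can show.

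H2-M3 presents peptides that begin with N-formylmethionine, as those of bacteria and mitochondria do. It had log2 values of 8.82, 8.82, 9.16, 9.21 and 8.60 in Rac2-/- arrays, against 9.45, 9.46, 9.75, 9.79 and 9.81 in WT arrays. The groups did not overlap, and the WT arrays spread little. The difference was -0.73 ± 0.14 (SE, n = 5 each), 1.66-fold lower, with an adjusted p of 0.0257.

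Neither call held throughout when single arrays were left out. H2-M2 passed in 6 of 10 such fits and missed without Rac2-/- array 2 (0.0551), Rac2-/- array 4 (0.0501), WT array 3 (0.0655) or WT array 4 (0.0648). H2-M3 also passed in 6 and missed without Rac2-/- array 2 (0.0675), WT array 3 (0.0793), WT array 4 (0.0754) or WT array 5 (0.0764). With the near-alike arrays 3 and 4 averaged in each group, the adjusted p was 0.127 for H2-M2 and 0.102 for H2-M3. The sizes moved little, from -2.002 to -1.56 for H2-M2 and from -0.80 to -0.65 for H2-M3 over the fits without an array.

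H2-Q4 encodes Qb-1, a nonclassical class I protein of the Q region. It had log2 values of 10.65, 10.41, 9.95, 9.87 and 8.81 in Rac2-/- arrays, against 11.48, 11.58, 11.04 and 11.03 in WT arrays 1 to 4 and 11 in WT array 5. The groups did not overlap, and Rac2-/- array 5 lay more than 1 log2 unit under the other Rac2-/- arrays. The difference was -1.29 ± 0.31 (SE, n = 5 each), 2.44-fold lower, with an adjusted p of 0.0752. It passed with the replicate block (0.0142), and in 2 of 10 fits without an array, those without Rac2-/- array 1 (-1.47, 0.0368) or Rac2-/- array 5 (-1.01, 0.0421). It missed in the other 8 (up to 0.173) and with arrays 3 and 4 averaged (0.299).

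H2-Q10 encodes a class I protein that the liver secretes. Its log2 values were 5.44, 5.44, 5.37, 5.50 and 5.17 in Rac2-/- arrays, against 6.04, 5.68, 5.61, 5.61 and 5.58 in WT arrays. These values lie in the low range of the arrays. The groups stood apart by a small margin, and the difference of -0.32 ± 0.11 did not pass (adjusted p = 0.244, and 0.0777 with the replicate block).

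H2-T24, a heavy chain gene of the T region, had log2 values of 10.82, 10.72, 10.14, 10.22 and 9.18 in Rac2-/- arrays, against 11.28, 11.45, 10.79, 10.82 and 10.93 in WT arrays. Rac2-/- array 1 lay above WT array 3, but within arrays 1 and 2 and within arrays 3 to 5 the groups stood apart. The difference was -0.84 ± 0.29 (SE, n = 5 each), with an adjusted p of 0.258, and it passed with the replicate block (0.0485). Class I heavy chain genes are alike in sequence, and RNA of one may bind probes of another, so the values of single heavy chains are uncertain to that extent.

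B2m encodes beta-2 microglobulin, the light chain that every classical and most nonclassical heavy chains need to reach the cell surface. Its log2 values were 13.02, 12.82, 12.61, 12.54 and 12.61 in Rac2-/- arrays, against 13.02, 12.99, 12.63, 12.51 and 12.69 in WT arrays. The groups overlapped, and both followed the array sets. The difference was -0.05 with a 95% interval of -0.34 to 0.24 (adjusted p = 0.999), so a fall as large as that of H2-M3 lies outside the interval. Whether B2m differs from the heavy chains in its response was not tested. The values are near the top of the range of the arrays, at most 13.69, where signals of an array can be compressed.

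Tap1 and Tap2 form the transporter that pumps cytosolic peptides into the endoplasmic reticulum. Tap1 had log2 values of 10.85, 10.72, 10.33, 10.32 and 9.34 in Rac2-/- arrays, against 11.52, 11.53, 11.15, 11.19 and 11.04 in WT arrays. The groups did not overlap, with array 5 again the lowest of the Rac2-/- arrays. The difference was -0.97 ± 0.26 (SE, n = 5 each), 1.96-fold lower, with an adjusted p of 0.110, and 0.0175 with the replicate block.

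Tap2 had log2 values of 9.54, 9.47, 8.81, 8.88 and 8.35 in Rac2-/- arrays, against 10.23, 10.03, 9.39, 9.49 and 9.29 in WT arrays. Rac2-/- arrays 1 and 2 lay within or above the range of WT arrays 3 to 5, while each Rac2-/- array lay below the WT array of its number. The difference was -0.68 ± 0.26 (adjusted p = 0.354), and it passed with the replicate block, where the SE was 0.08 (adjusted p = 0.00674). Tap2 thus had the smallest blocked p of the 8 members, and both subunits had lower means.

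Rac2-/- array 5 was the lowest of its group for 6 of the 8 members, where 19.2% of all features had their lowest Rac2-/- value in it. Without this array the median difference of the members was -0.61, and 3 members passed (H2-M2, H2-M3 and H2-Q4), all lower, as 0.962% of all features did. Tap1 then had a difference of -0.73 (adjusted p = 0.0599).

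The level of several members also followed the array sets. In arrays 3 to 5 of both groups, 5 of the 8 members were lower than in arrays 1 and 2 (H2-Q4, H2-T24, B2m, Tap1 and Tap2), where 22.5% of all features were lower. Tap2 differed most, with means of 9.04 in arrays 3 to 5 and 9.82 in arrays 1 and 2 (-0.78 ± 0.11, adjusted p = 0.000173). B2m had means of 12.60 in arrays 3 to 5 and 12.96 in arrays 1 and 2 (-0.36 ± 0.06, adjusted p = 0.000778). H2-M2 and H2-M3 had their higher mean in arrays 3 to 5, by 0.61 and 0.25, and did not pass (0.0943 and 0.0975).

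Within each array set the genotype difference was computed anew. For 7 of the 8 members, all but B2m, Rac2-/- arrays lay below WT arrays both within arrays 1 and 2 and within arrays 3 to 5, as 6.19% of all features did. H2-M2 had a difference of -1.37 within arrays 1 and 2 and -2.05 within arrays 3 to 5. H2-Q4 had -0.9996 and -1.48 in the same order, Tap1 -0.74 and -1.13, and Tap2 -0.62 and -0.71. Within arrays 1 and 2, with 2 arrays against 2, 0 members passed in limma, and 0.0037% of all features passed as lower. At an unadjusted p under 0.05 in limma there were 6 members, and the share of all features at that threshold was not computed. Within arrays 3 to 5, 4 members passed (H2-M2, H2-M3, H2-Q4 and Tap2), all lower, as 3.04% of all features did. The interaction of genotype and array set passed for 0 features in limma, with 5.77% of them at an unadjusted p under 0.05, and with 0 of the 8 members there, so no difference between the sets was detected in the members. With a term for the array set, 7 members passed as lower, all but B2m, against 4.36% of all features.

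**Figure D3:**
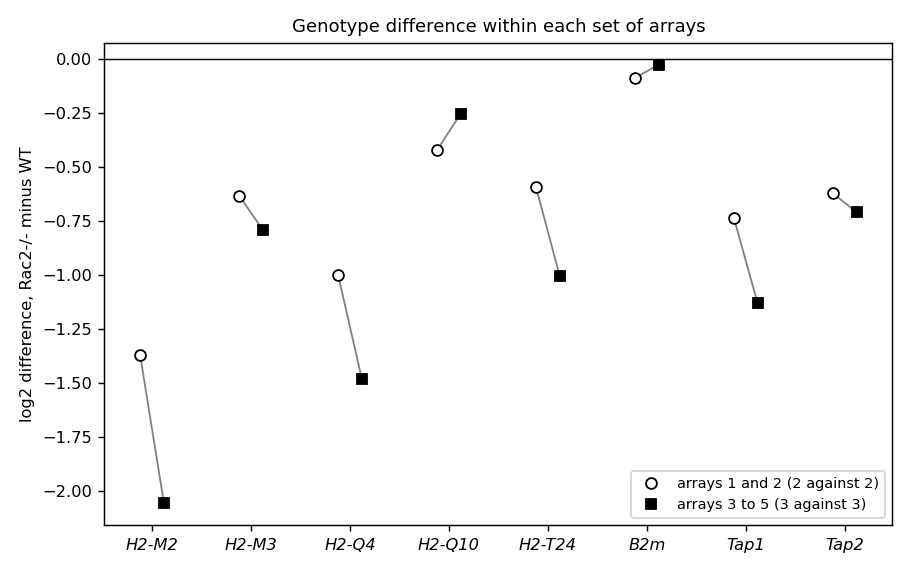
Log2 difference (Rac2-/- minus WT) of each member within arrays 1 and 2 (open circles, 2 against 2) and within arrays 3 to 5 (filled squares, 3 against 3), joined by a line. All 16 values lie below 0, and that of B2m lies nearest to 0 in both sets.

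The tested heavy chain genes outside the members fell into those with clear signal, all with lower means, and 6 with little signal. Of 29 listed, 10 were tested, 7 had only shared features, 7 were not analysed here and 5 were too low for the filter. H2-Q5 and H2-T10 fell, and 0 rose; the list's median was -0.17, where that of all features was 0.00. H2-Q5 had values of 8.26 to 9.65 in Rac2-/- arrays and 10.67 to 11.13 in WT arrays (-1.64 ± 0.24, adjusted p = 0.00750). H2-T10, a ligand of some gamma delta T cells, had 9.45 to 10.32 in Rac2-/- arrays and 10.84 to 11.34 in WT arrays (-1.08 ± 0.17, adjusted p = 0.0131). Both passed in all 10 fits without an array, and neither with arrays 3 and 4 averaged (0.0667 and 0.0895). H2-K2 (-0.72) and H2-Q2 (-0.45) did not pass without the replicate block and passed with it, at adjusted p of 0.0229 and 0.0184. The other 6, H2-Bl and 5 genes of the M region, had differences of -0.28 to 0.13. Their values were low, from 5.09 (H2-M10.4) to 6.37 (H2-M5), which limits what a difference or the list's median can show.

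Class I-like genes, whose products resemble heavy chains but lie outside the H2 complex, showed no common direction. Of 8 tested, 0 passed in limma (1 at an unadjusted p under 0.05) and the median was -0.04. Hfe, which takes part in iron regulation, had the largest positive difference, with 9.95 to 10.94 in Rac2-/- arrays and 9.63 to 10.45 in WT arrays (0.46 ± 0.23, adjusted p = 0.586, and 0.0148 with the replicate block). Mill2 had a difference of -0.71 (adjusted p = 0.179).

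In the endoplasmic reticulum, the TAP-binding protein related gene Tapbpl, an editor of bound peptides, fell as the only one of 11 loading, folding and trimming genes, and 0 rose. It had values of 9.22, 8.99, 8.92, 8.89 and 8.33 in Rac2-/- arrays, against 9.67, 9.62, 9.60, 9.57 and 9.82 in WT arrays. The groups did not overlap (-0.78 ± 0.15, adjusted p = 0.0259), and the gene passed in 2 of 10 fits without an array, those without Rac2-/- array 1 or 5. In the other 8 and with arrays 3 and 4 averaged (0.155) it did not. Tapbp, tapasin, which bridges the transporter and the heavy chain, had a difference of -0.28 ± 0.11 (adjusted p = 0.381). Erap1, which trims peptides to length, had -0.31 (0.855). The chaperones Calr, Canx and Pdia3 had 0.14, 0.13 and 0.05. Uggt1, which returns misfolded glycoproteins to folding, had 0.59 ± 0.13, with all Rac2-/- arrays above all WT arrays (adjusted p = 0.0588, and 0.0111 with the replicate block). The median of the list was 0.09.

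Of 17 proteasome and peptidase genes, Psmb10 fell and 0 rose, where 1.11% of all features fell and 0.795% rose. Psmb10 encodes one of the catalytic subunits that turn a proteasome into an immunoproteasome. It had values of 10.80, 10.64, 10.67, 10.58 and 10.38 in Rac2-/- arrays, against 11.09, 11.14, 11.13, 11.12 and 11.17 in WT arrays. The WT arrays lay within 0.1 of each other, and the groups did not overlap (-0.52 ± 0.08, adjusted p = 0.0132). It passed in all 10 fits without an array and had 0.103 with arrays 3 and 4 averaged. Psmb8 and Psmb9, the other immunoproteasome subunits, lie beside Tap1 and Tap2 in the H2 complex. Psmb8 had 9.57 to 10.69 in Rac2-/- arrays and 10.58 to 11.10 in WT arrays (-0.56, adjusted p = 0.320, and 0.0274 with the block). Psmb9 had 9.20 to 11.06 in Rac2-/- arrays and 10.38 to 11.43 in WT arrays (-0.71, adjusted p = 0.662, and 0.0305 with the block). The constitutive subunits Psmb5, Psmb6 and Psmb7 had differences of -0.03, -0.28 and -0.11, with Psmb6 past the test with the block (0.0497). Psme2, of the proteasome activator PA28, had -0.37 ± 0.08 with no overlap of the groups (0.0616, and 0.0481 with the block). The peptidases Npepps (0.32) and Blmh (0.45) did not pass without the block and passed as higher with it, at 0.0384 and 0.0340, as 3.32% of all features were.

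**Figure D4:**
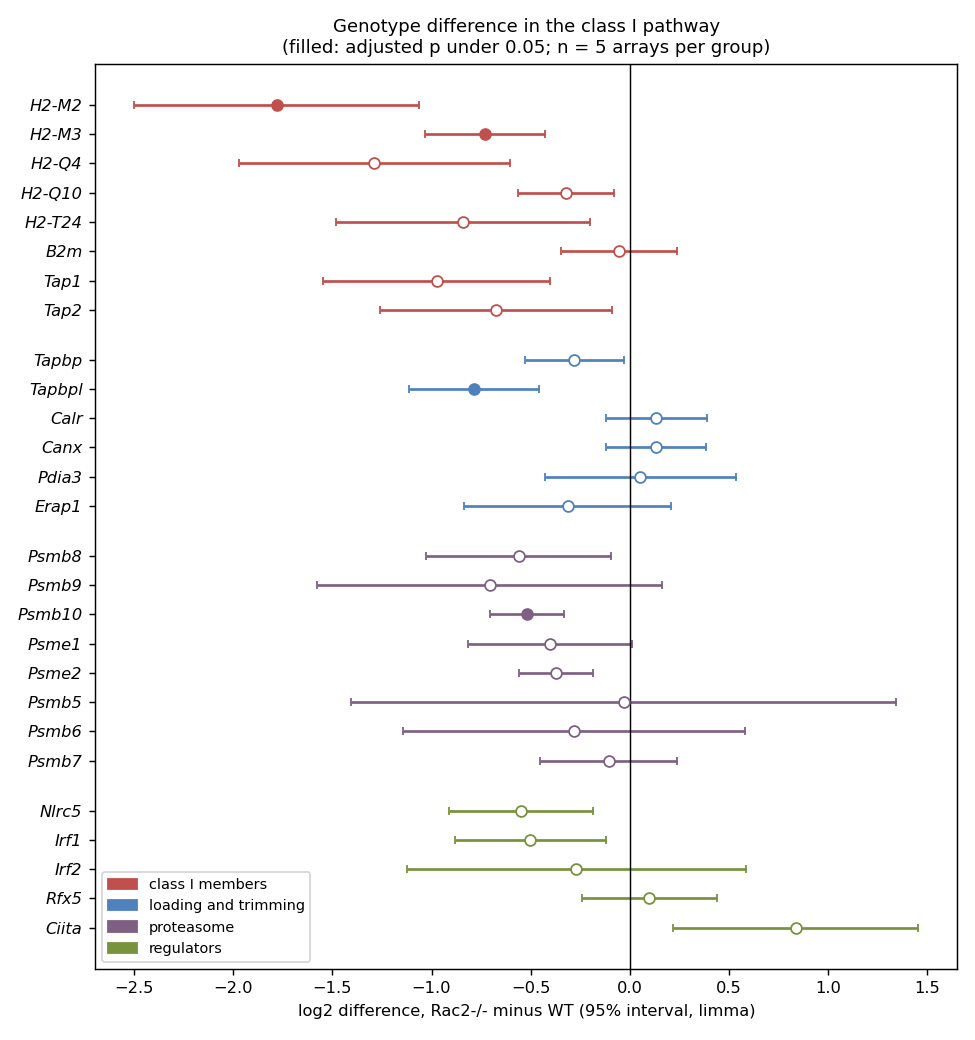
Log2 difference (Rac2-/- minus WT) with its 95% interval in limma for class I members, loading and trimming genes, proteasome genes and regulators (n = 5 arrays per group). Filled points passed an adjusted p of 0.05: H2-M2, H2-M3, Tapbpl and Psmb10, all below 0.

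Of 14 transcription factors of class I genes, 0 passed in limma (4 at an unadjusted p under 0.05), 1 passed with the replicate block, and the median was 0.00. Nlrc5, the class I transactivator, had values of 10.28, 9.99, 9.59, 9.67 and 9.29 in Rac2-/- arrays, against 10.24 to 10.41 in WT arrays. Rac2-/- array 1 lay within the WT range, and the other Rac2-/- arrays below it (-0.55 ± 0.16, adjusted p = 0.166, and 0.0524 with the block). Irf1, an interferon-induced activator of class I genes, averaged 10.05 ± 0.41 in Rac2-/- arrays and 10.55 ± 0.04 in WT arrays (SD, n = 5 each; difference -0.50 ± 0.17, adjusted p = 0.255). Without Rac2-/- array 1, both passed.

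Ciita, the class II transactivator, had the largest positive difference of the list, 0.84 ± 0.28 (adjusted p = 0.236), with 7.21 to 8.65 in Rac2-/- arrays and 6.75 to 7.46 in WT arrays. Creb1 had 0.29 ± 0.08 (adjusted p = 0.140, and 0.0355 with the block). Of 10 genes of the endosomal route by which phagocytes present engulfed proteins on class I, 0 passed in limma with or without the block (0 at an unadjusted p under 0.05 without it), with differences of -0.23 (Rab27a) to 0.48 (Sec61b). Wdfy4, which this route needs in dendritic cells, had 0.24 (adjusted p = 0.965).

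Interferon-induced genes outside the pathway were read beside the class I genes, from lists chosen with earlier results of these data known. The lists do not hold all interferon-induced genes, and their counts describe the listed genes only. Ifi27l1, an interferon-inducible gene outside them, is reported by the authors as higher in Rac2-/- BMDMs. Of 14 genes of the type I interferon list, 7 fell and 0 rose, where 1.11% of all features fell and 0.795% rose. Their median was -0.93, and their summed level was 14.35 to 15.19 in Rac2-/- arrays and 15.51 to 15.76 in WT arrays. Cmpk2 (-1.52 ± 0.19, adjusted p = 0.00361) and Mx1 (-1.82 ± 0.34, 0.0259) had the largest differences among those that fell. Ifit1, Ifit3, Rsad2, Usp18 and Zbp1 also fell, with differences from -1.41 (Rsad2) to -0.73 (Ifit3), and Ifit2, Oas1a and Mx2 passed with the block but not without it. Of the 7 that fell, Rsad2, Usp18 and Cmpk2 passed in all 10 fits without an array, and Ifit1 in all but that without WT array 3. Ifit3 missed without Rac2-/- array 5 or any 1 of WT arrays 2 to 5. Mx1 passed only in the fit without Rac2-/- array 1, and Zbp1 only without Rac2-/- array 1 or 5. With arrays 3 and 4 averaged, Cmpk2 alone passed (0.0488).

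Of 11 genes of the interferon gamma list, Irgm1 and Cd274 fell and 0 rose, with a median of -0.82. Irgm1, a GTPase that acts on intracellular bacteria, had 9.99 to 10.92 in Rac2-/- arrays and 10.96 to 11.57 in WT arrays (-0.82 ± 0.17, adjusted p = 0.0377). Cd274, which encodes PD-L1, averaged 9.93 ± 0.42 in Rac2-/- arrays and 10.89 ± 0.27 in WT arrays (SD, n = 5 each; difference -0.96 ± 0.20, 0.0455, and 0.0674 with the block). Of the 10 fits without an array, Irgm1 passed only in that without Rac2-/- array 1, and Cd274 in those without Rac2-/- array 1, Rac2-/- array 5 or WT array 1. With arrays 3 and 4 averaged neither passed (0.176 for Irgm1 and 0.200 for Cd274). Iigp1 (-1.46, 0.146) and Cxcl10 (-1.37, 0.0743) had larger differences and wider spread, and Gbp3 and Socs1 passed with the block but not without it. What part of the class I differences goes with interferon signalling was not tested.

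**Figure D5:**
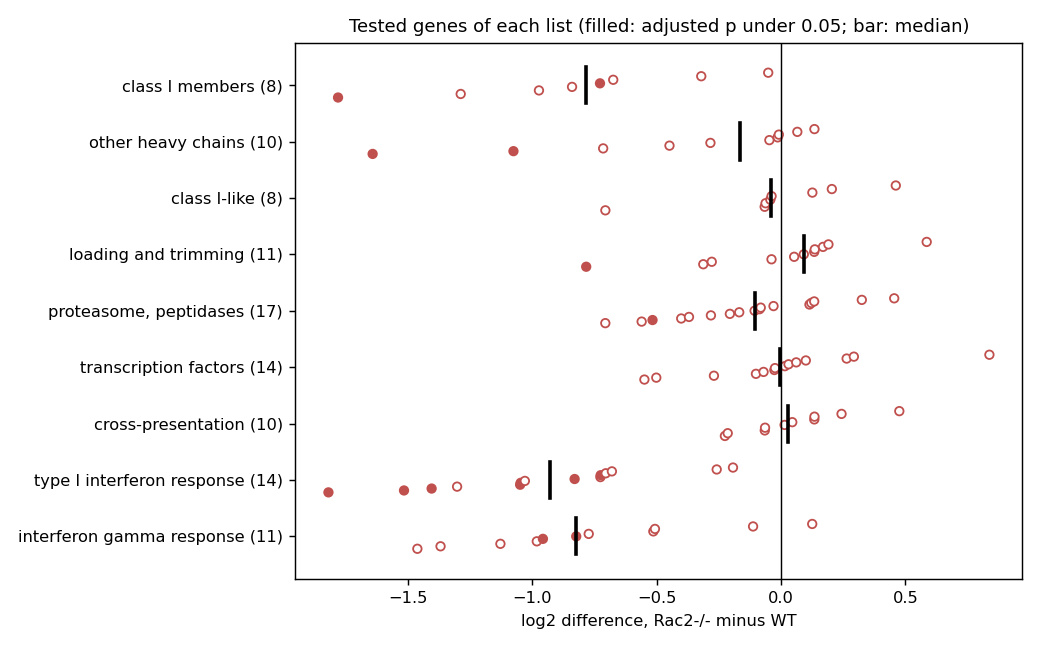
Log2 difference (Rac2-/- minus WT) of each tested gene (points; filled where the adjusted p was under 0.05) by list, with the number of tested genes in brackets and the list's median as a bar. The class I members (-0.78), the type I interferon list (-0.93) and the interferon gamma list (-0.82) have the lowest medians of the 9 lists shown, which leave out the cell type markers.

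Markers of other cells that a BMDM culture may hold were read beside these results. Of 7 dendritic cell markers tested, Itgax rose and Ccr7 fell. Itgax, which encodes CD11c, had values of 7.49 to 8.96 in Rac2-/- arrays and 5.76 to 6.13 in WT arrays (1.95 ± 0.25, adjusted p = 0.00424), with its highest value in Rac2-/- array 5. Ccr7 had 6.27 to 7.03 in Rac2-/- arrays and 7.30 to 7.77 in WT arrays (-0.91 ± 0.15, 0.0141). Ccr7 did not pass with arrays 3 and 4 averaged (0.0710) or without WT array 3. The transcription factor Zbtb46, which defines classical dendritic cells, had 6.28 to 6.51 in Rac2-/- arrays and 6.24 to 6.43 in WT arrays. The summed level of the list was 9.20 to 9.77 in Rac2-/- arrays and 8.96 to 9.29 in WT arrays. Of 4 mast cell and basophil markers tested, 0 passed in limma (4 at an unadjusted p under 0.05), but their median difference was -0.91 and their summed level did not overlap, at 7.22 to 7.58 in Rac2-/- arrays and 7.66 to 8.85 in WT arrays. For fibroblasts (6 tested, 0 passed, 2 at an unadjusted p under 0.05) it was 9.16 to 9.57 in Rac2-/- arrays and 9.46 to 9.87 in WT arrays, and for neutrophils (8 tested, 0 passed, 0 at an unadjusted p under 0.05) 9.84 to 12.25 in Rac2-/- arrays and 10.39 to 12.87 in WT arrays. Of the B cell (2 tested), T and NK cell (4 tested) and erythroid (2 tested) markers, 0 passed in limma (1, 0 and 0 at an unadjusted p under 0.05). With the block, Cd79b (0.78, 0.0144) and the dendritic cell marker Xcr1 (0.61, 0.00877) passed as higher, and Siglech (-0.62, 0.0117) and the fibroblast marker Dcn (-1.21, 0.0173) as lower. The part of these markers in the class I differences was not tested, and fewer cells of a type cannot be told apart from less RNA per cell.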

How the data were processed

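Expression of BMDMs was measured on 10 Affymetrix arrays, 5 of Rac2-/- and 5 of WT cells, grouped and numbered by the sample labels. The authors deposited RMA values on a log2 scale (background-corrected, quantile-normalized and summarized over the probes of a feature). No log base stands beside the values, and log2 was taken from their range, 1.69 to 13.69. The methods also name a filter leaving 27031 genes and ComBat for a batch. The deposited values hold 34760 features, and the sources used here do not say whether ComBat was applied to them. Software versions of the authors and the array annotation release are not given there either. Arrays have no read depth, so the number of arrays limits the precision. The labels and the methods differ on the day of harvest, the RIN and the share of cells that stained as macrophages (Mac1 in the labels, Mac1 and F4/80 in the methods).

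Gene names came from the platform annotation, and only features with 1 gene symbol were named (21640 with 1 symbol, 1321 with several, 11799 with none). For a gene with several features the one with the highest mean was read. Features were ranked by their fourth-highest value, and the top 27031 (down to 4.73) were tested with limma 3.58.1 in R 4.3.3 (lmFit and eBayes) over all 10 arrays, with Benjamini-Hochberg adjustment over all of them and a threshold of 0.05. The SE, intervals and block values come from the same kind of fit. The main and block fits were also run on simulated arrays with array-set shifts. Those arrays had no pairs and no near-alike arrays, so they cannot bear on either point. Rac2 was also tested with an exact permutation test. Counts at an unadjusted p under 0.05 in limma have no share of all features beside them, except for the interaction. That share was not computed for the other fits. A summed level is log2 of the sum of the linear values of a list's tested genes in an array.

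After subtraction of group means, arrays sharing a number correlated between genotypes at 0.493 to 0.716. Arrays with different numbers gave 0.476 to 0.724 inside an array set and -0.716 to -0.515 across sets. These values tie the arrays of a set across genotypes but do not single out arrays of the same number. The labels give no litter or day either. Pairing by number in the replicate block is therefore an assumption.

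Members, lists and alternatives were chosen with earlier results of these data known. Named were Rac2, all members, Tapbp, Erap1, Psmb8 to Psmb10, Nlrc5 and Irf1, and of each list the genes past the test with or without the replicate block and the 2 with the largest differences. Another gene that the rule names is not reported here. Marker genes, Calr, Canx, Pdia3, Psmb5, Psmb7, Psme1, Irf2, Rfx5, Rab27a and H2-Bl were named outside this rule after their values were seen. Alternatives were a replicate block, other filters, array weights, a robust trended variance, quantile normalization, median centring, the mean of a gene's features, a term for array set, fits within array sets and leaving out each array. The average of arrays 3 and 4 was added after seeing the data. Promoter sequences came from RefSeq (GRCm38.p6).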

Additional observations from a re-analysis of the deposited data

Results flagged for a closer look

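In 4 of 96 groups of 5 arrays looked at, 1 array stood apart from the other 4 of its group by more than Dixon's 95% limit. Chance alone marks about 1 in 20 groups. H2-Q10 was 6.04 in WT array 1, with 5.58 to 5.68 in the other WT arrays. H2-Q5 was 8.26 in Rac2-/- array 5, with 9.39 to 9.65 in the other Rac2-/- arrays. Sec61b was 7.63 in Rac2-/- array 1, with 8.52 to 8.79 in the other Rac2-/- arrays. Ifit3 was 12.18 in WT array 1, with 12.34 to 12.40 in the other WT arrays.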

How the results depend on the processing

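Of the 8 members, 2 passed the test; with the replicate block 6 passed, with array weights 5, with a term for array set 7, within arrays 3 to 5 alone 4, and 0 in limma within arrays 1 and 2 alone or with arrays 3 and 4 averaged (6 each at an unadjusted p under 0.05). Leaving out 1 array gave 0 to 3 members: 0 without Rac2-/- array 2, WT array 3 or WT array 4, and 1 without Rac2-/- array 4 or WT array 5. Over the pathway lists 13 genes passed; the count was 28 with the replicate block, 35 with array weights, 38 with the term for array set, 31 within arrays 3 to 5, 0 within arrays 1 and 2, 1 with arrays 3 and 4 averaged, and 6 to 26 without 1 array. Over all features 514 passed; the count was 1716 with the replicate block, 1811 with array weights, 2524 with the term for array set, 1487 within arrays 3 to 5, 2 within arrays 1 and 2, 98 with arrays 3 and 4 averaged, and 245 to 625 without 1 array. The cause of these changes was not tested. The fits within sets rest on fewer arrays, and their counts fell within arrays 1 and 2 but rose within arrays 3 to 5. Over the fits without 1 array B2m ranged from -0.13 to 0.01, and it turned positive without WT array 1 (0.0105, adjusted p = 0.997) or WT array 2 (0.00418, adjusted p = 0.998), and no other member changed sign in any alternative run. The filters, the variance and the normalization tried left the calls of the 8 members as they were; H2-Q10 was not tested under the stricter filter. Signals of B2m near the top of the range, of H2-Q10 near the bottom and of H2-M2 in Rac2-/- arrays, which were low, limit what a difference can show.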
